A study of Mus musculus with 30 samples.

Results

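The 10 genes described here were Atf4 and 9 regulators of the integrated stress response that act with it or downstream of it: Ddit3, Trib3, Chac1, Sesn2, Atf3, Ddit4, Atf5, Cebpb and Nupr1. They were taken by name from the 55401 genes of each count table. The set was selected on earlier results of these data, in which Atf4 and Chac1 had been seen to change after auxin, so their differences are given as a description with standard errors (SE) and no p-value. The p-values of the other 8 genes come from fits over all genes and are descriptive for the same reason. So are the calls given below for Atf4 and Chac1, which rest on p-values and are no test of these genes.

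Nuclear RNA was sequenced from mouse embryonic stem (ES) cells in 30 libraries, 2 for each of 15 conditions, held in 4 count tables. CGR8 is the parental ES cell line and carries no degron. It was left untreated or was given 500 µM indole-3-acetic acid (IAA, an auxin) for 4 h. SYAT cells are CGR8 cells in which a YPet-AID tag was added to both alleles of Srcap, the gene for the ATPase of the complex that deposits the histone variant H2A.Z, and which express OsTir1, the plant protein that directs AID-tagged proteins to degradation when auxin is present. SYAT control cells were kept in auxinole, an inhibitor of Tir1, and the other SYAT cells were exposed to IAA, with harvests at 2, 4, 6 and 8 h. A further table held SYAT cells sorted in early G1 (EG1) or late G1 (LG1), as controls or after 1 h of IAA. In the last table, SYAT cells expressed SRCAP-mCherry after 24 h of doxycycline, either wild type (wtSRCAP) or catalytically dead (cdSRCAP), and were compared without and with 4 h of IAA. The wtSRCAP and cdSRCAP lines were 1 clone each, so a difference between clones and a difference between proteins cannot be told apart. The degron controls stood in auxinole and the CGR8 control did not, and the part of auxinole in any difference between the lines was not tested.

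The integrated stress response starts when a kinase phosphorylates the translation factor eIF2alpha, which slows general protein synthesis but raises translation of the Atf4 mRNA. ATF4 is a basic leucine zipper transcription factor that switches on genes for amino acid synthesis, amino acid uptake and tRNA charging, together with further transcription factors and feedback inhibitors. Auxin-treated ES cells without a degron show how much of a change in these genes accompanies auxin alone. Nuclear RNA reports transcript levels and not ATF4 protein.

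Exonic totals were 45617992 to 60214521 counts per library for CGR8, 17540823 to 22873893 for the SYAT time course, 19740778 to 26672402 for the sorted cells and 12236493 to 26369773 for wtSRCAP and cdSRCAP. The shallowest library, wtSRCAP IAA replicate 1, also differed from its partner for several of the genes below. The 9 pluripotency markers summed to between 1732 and 4946 in exonic counts-per-million (CPM) in every library, none of them at 0, against 4.82 to 22.4 for endoderm, 0.979 to 6.41 for mesoderm, 39.2 to 183 for neuroectoderm and 6.22 to 52.0 for fibroblast markers. With IAA in CGR8 the log2 fold changes of the pluripotency markers ran from −0.32 to 0.63, and none was called. Srcap transcript stood at 21.3 to 24.2 CPM in CGR8 and 39.9 to 60.2 in the SYAT time course, and it does not report depletion of the tagged protein. In these bulk libraries, fewer cells with a transcript and less of that transcript per cell cannot be told apart.

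The promoters are shown because genes that ATF4 drives directly carry an element with the letters TGATGNAA, to which ATF4 binds together with a C/EBP protein. RefSeq promoter windows on GRCm38.p6, from 250 bases before to 50 bases after the annotated start, were found for all 10 genes. TGATGNAA, searched on both strands, was in the windows of 4 genes (Atf3, Chac1, Nupr1 and Trib3) and in 3.97% of all 32851 windows. The form TGATGCAA, which is contained in it, was in 3 of them (Atf3, Chac1 and Nupr1) and in 0.895% of all windows. The cyclic AMP response element TGACGTCA was in none of the 10 and in 1.79% of all windows. A match is a run of letters and not a measured binding site. In the 4 windows that follow, read 5′ to 3′ on the strand of the gene, capitals mark the match, which lies on the opposite strand and therefore reads TTGCATCA or TTACATCA.
Chac1, chr2:119350992-119351291, plus strand: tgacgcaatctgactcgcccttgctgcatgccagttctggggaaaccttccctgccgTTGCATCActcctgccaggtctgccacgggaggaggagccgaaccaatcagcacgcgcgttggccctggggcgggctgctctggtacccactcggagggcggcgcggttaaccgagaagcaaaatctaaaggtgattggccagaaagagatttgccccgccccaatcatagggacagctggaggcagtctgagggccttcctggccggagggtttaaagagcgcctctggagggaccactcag
Nupr1, chr7:126625421-126625720, minus strand: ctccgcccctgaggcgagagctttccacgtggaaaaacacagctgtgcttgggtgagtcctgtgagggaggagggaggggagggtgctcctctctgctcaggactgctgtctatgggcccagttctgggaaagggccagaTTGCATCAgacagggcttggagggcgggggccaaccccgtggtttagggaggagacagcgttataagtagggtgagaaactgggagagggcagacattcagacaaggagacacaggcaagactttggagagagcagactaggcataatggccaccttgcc
Trib3, chr2:152344011-152344310, minus strand: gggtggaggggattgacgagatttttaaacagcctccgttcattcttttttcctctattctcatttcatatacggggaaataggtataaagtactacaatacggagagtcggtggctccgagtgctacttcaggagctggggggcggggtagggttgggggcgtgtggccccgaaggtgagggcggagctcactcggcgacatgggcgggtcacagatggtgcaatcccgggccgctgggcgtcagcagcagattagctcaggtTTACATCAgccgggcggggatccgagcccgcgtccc
Atf3, chr1:191183284-191183583, minus strand: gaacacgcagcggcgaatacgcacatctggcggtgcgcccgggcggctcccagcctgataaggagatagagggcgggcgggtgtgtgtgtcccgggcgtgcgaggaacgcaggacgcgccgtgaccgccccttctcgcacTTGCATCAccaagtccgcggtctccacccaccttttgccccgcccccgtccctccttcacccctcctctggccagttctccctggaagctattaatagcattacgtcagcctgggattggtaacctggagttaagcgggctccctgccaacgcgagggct
The first base of the match lay 193 bases before the start in Chac1 and 110 bases before it in both Nupr1 and Atf3. In Trib3 it was base 15 counted from the RefSeq start. That position is upstream of the GENCODE span of Trib3 given below, whose 5′ end is at 152344032. The windows of Nupr1 and Atf3 lie inside the GENCODE spans given below, whose 5′ ends are further upstream, at 126630861 and 191218039. With IAA in CGR8 cells the log2 fold changes were −3.04 for Chac1, −1.68 (SE 0.44) for Nupr1 and −1.66 (SE 0.23) for Trib3. Atf4, which has no match, stood at −1.53 (SE 0.15). Atf3 differed little in CGR8 in exonic counts and more in intronic counts, as given below. Whether the match bears on these differences was not tested.

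Within the CGR8 control, the level per kilobase of exon was highest for Sesn2 (mean 45.3 CPM per kb) and Atf4 (45.0), whose libraries overlapped. Ddit4 followed with 20.9, Trib3 with 15.6, Atf5 with 8.94 and Chac1 with 5.92. The lowest were Cebpb with 4.65, Ddit3 with 3.42, Nupr1 with 0.998 and Atf3 with 0.447 CPM per kb. In the SYAT control Sesn2 again led with 49.2, and Ddit4 (39.4) and Atf4 (36.3) overlapped behind it. Chac1 stood lower in that order, at 2.34 CPM per kb beside Ddit3 at 2.51, and these overlapped as well. The libraries of different tables were processed separately, so only differences within a table are tested below.

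Atf4 was lower after 4 h of IAA in CGR8 cells that carry no degron. Atf4 lies on chromosome 15 (chr15:80255184-80257541, plus strand, GRCm38), and its exons cover the whole span. The CGR8 controls held 115 and 96.8 exonic CPM and the IAA libraries 35.4 and 37.9. The groups did not overlap, and the means were 106 ± 13.1 (SD, n = 2) and 36.7 ± 1.77. The log2 fold change was −1.53 (SE 0.15, 95% interval −1.87 to −1.19), or 2.89-fold lower, and it stayed between −1.65 and −1.39 when any 1 of the 4 libraries was left out.

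In SYAT cells Atf4 stood lower in all 8 IAA libraries than in both controls, by a smaller amount. The controls held 96.5 and 74.7 CPM, and the 4 h libraries 61.9 and 61.2. At 2 h both libraries held 61.5, at 6 h they held 52.2 and 68.5, and at 8 h 57.8 and 55.9. The log2 fold changes were −0.48, −0.48, −0.50 and −0.59 at 2, 4, 6 and 8 h, each with an SE of 0.17, so the 4 times differed from each other by less than their errors. All 4 use the same 2 control libraries.

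In the lines that expressed SRCAP-mCherry, Atf4 was again lower with IAA in both. The wtSRCAP controls held 144 and 133 CPM and the IAA libraries 83.2 and 59.7, a log2 fold change of −0.96 (SE 0.22). The cdSRCAP controls held 80.6 and 74.5 CPM and the IAA libraries 40.0 and 36.7, a log2 fold change of −1.02 (SE 0.22). Controls and IAA libraries did not overlap in either line, and the IAA difference itself differed between the lines by −0.06 (SE 0.31, 95% interval −0.76 to 0.64). After 1 h of IAA in sorted cells the groups overlapped, with EG1 controls at 65.0 and 91.1 CPM against 64.7 and 80.1, and LG1 controls at 62.9 and 88.2 against 62.7 and 78.2.

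Chac1 encodes a gamma-glutamylcyclotransferase that degrades glutathione, and it is a target of ATF4. It lies at chr2:119351229-119354381 on the plus strand. Its level in CGR8 was 9.0 and 10.4 CPM in the controls and, with IAA, 1.53 and 0.840. This was the largest difference of the 10 genes in CGR8, with a log2 fold change of −3.04 (SE 0.33), or 8.20-fold lower, and −3.51 to −2.65 when 1 library was left out.

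Chac1 was also lower in every IAA library of the SYAT time course than in either control. The controls held 4.76 and 2.89 CPM, and the 8 IAA libraries lay between 0.713 (4 h, replicate 2) and 1.42 (8 h, replicate 1). The log2 fold changes were −1.94 (SE 0.40) at 2 h, −2.06 (SE 0.40) at 4 h, −1.79 (SE 0.40) at 6 h and −1.5 (SE 0.38) at 8 h. These rest on 16 to 31 exonic counts per IAA library. The groups did not overlap at any time, and the difference was already present at 2 h.

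The wtSRCAP controls held 14.6 and 14.4 CPM of Chac1 and the IAA libraries 1.07 and 0.900, a log2 fold change of −3.90 (SE 0.38), or 14.9-fold lower. The cdSRCAP controls held 6.18 and 7.74 CPM and the IAA libraries 0.418 and 0.673, a log2 fold change of −3.65 (SE 0.38), or 12.5-fold lower. In both lines the IAA libraries lay far below the controls, on 11 and 23 counts for wtSRCAP and 8 and 15 for cdSRCAP. The IAA differences of the 2 lines were 0.25 apart (SE 0.54, 95% interval −0.96 to 1.45). In sorted cells 1 h of IAA gave overlapping groups: EG1 controls held 11.1 and 19.7 CPM against 15.9 and 19.4, and LG1 controls 14.8 and 29.6 against 18.8 and 31.5. Replicate 1 was below replicate 2 in each of these 4 sorted groups.

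**Figure D1:**
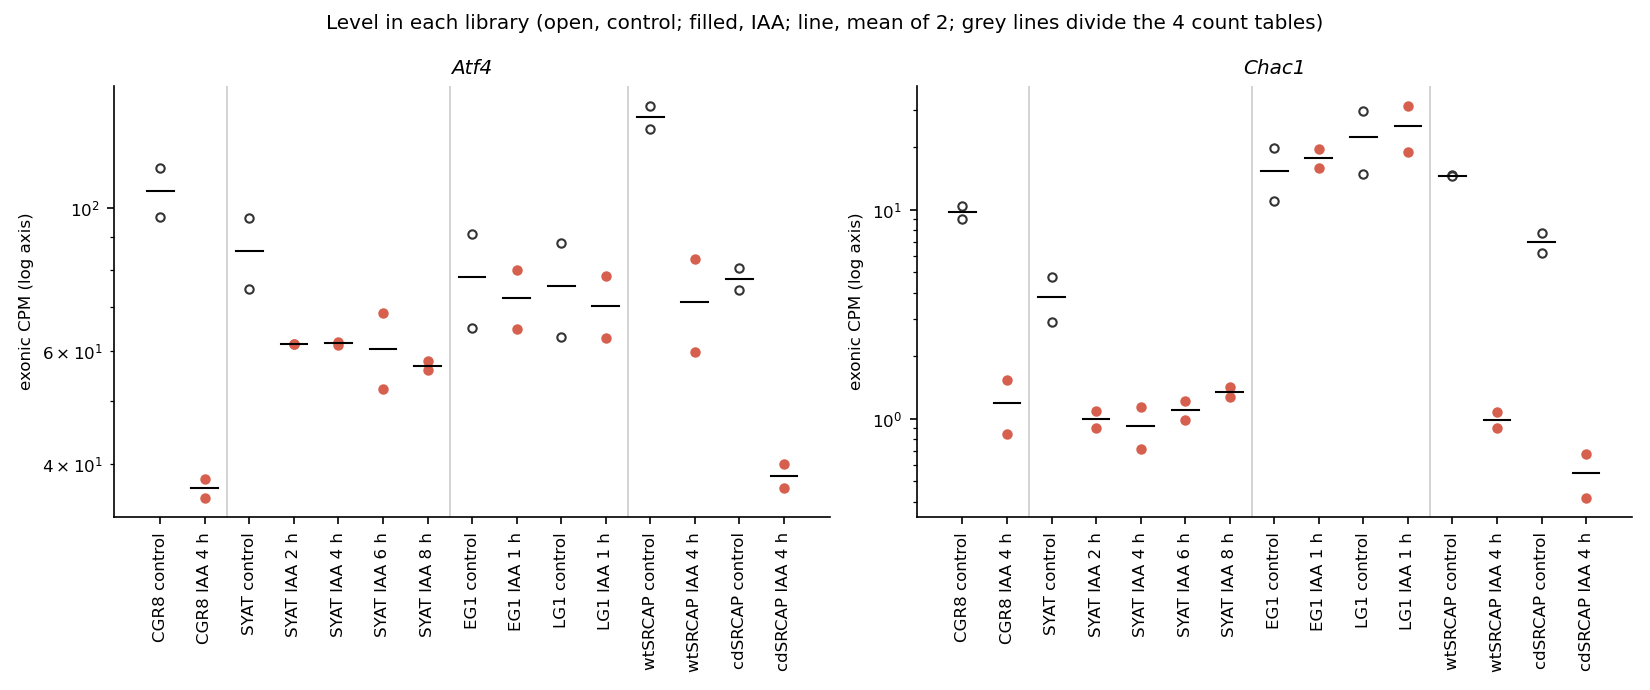
Exonic CPM on a log axis for Atf4 and Chac1 in each library by condition, with open points for controls, filled points for IAA and a line at the mean of 2. Both genes lie lower with IAA in CGR8, SYAT, wtSRCAP and cdSRCAP cells, from 106 to 36.7 CPM (Atf4) and 9.69 to 1.19 CPM (Chac1) in CGR8, and the points overlap in the sorted cells.

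Trib3 encodes a pseudokinase that ATF4 induces and that restrains ATF4 in return (chr2:152337422-152344032, minus strand). In CGR8 cells the controls held 38.2 and 27.9 CPM and the IAA libraries 12.3 and 8.64. The groups did not overlap, and the log2 fold change was −1.66 (SE 0.23), which did not pass the threshold over all genes (adjusted p = 0.265, edgeR quasi-likelihood test with Benjamini-Hochberg adjustment). Among SYAT libraries the controls held 11.1 and 7.52 CPM and the IAA libraries 5.96 to 12.7, with log2 fold changes of −0.13, −0.41, 0.13 and −0.43 at 2, 4, 6 and 8 h (SE 0.29 at 4 h). The groups overlapped at 2, 6 and 8 h, and at 4 h the IAA libraries, at 6.52 and 7.46 CPM, lay just below both controls.

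In wtSRCAP cells the Trib3 controls held 23.4 and 29.7 CPM and the IAA libraries 28.9 and 12.1, and the log2 fold change of −0.39 (SE 0.37) depended on 1 library. It was −1.11 without wtSRCAP IAA replicate 1 and 0.14 without replicate 2. In cdSRCAP cells the controls held 19.4 and 22.1 CPM and the IAA libraries 14.1 and 12.2, without overlap, with a log2 fold change of −0.67 (SE 0.37). The sorted cells held more Trib3 than the other degron cells, 45.2 to 68.0 CPM, with overlapping groups after 1 h.

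Nupr1 encodes a small stress-induced chromatin-associated protein (chr7:126623249-126630861, minus strand). The CGR8 controls held 2.88 and 2.14 CPM and the IAA libraries 1.02 and 0.549, a log2 fold change of −1.68 (SE 0.44, adjusted p = 0.540). The wtSRCAP controls held 3.11 and 2.86 CPM and the IAA libraries 0.878 and 0.587, a log2 fold change of −2.06 (SE 0.59, adjusted p = 0.641). In both of these the groups did not overlap. The cdSRCAP controls lay at 1.05 and 2.13 CPM against 0.575 and 1.03, a log2 fold change of −1.0 (SE 0.57). SYAT controls lay at 1.92 and 0.826 CPM, and the log2 fold changes were −0.23 (SE 0.53) at 2 h, −0.96 (SE 0.56) at 4 h, −1.41 (SE 0.59) at 6 h and −1.30 (SE 0.57) at 8 h. Those IAA libraries hold 6 to 25 counts of Nupr1 each. Without SYAT control replicate 1 the 4 values were 0.48, −0.24, −0.69 and −0.59, and without control replicate 2 they were −0.73, −1.45, −1.90 and −1.80. Leaving out the lower or the higher of the IAA libraries at 6 or 8 h moved them to between −1.97 and −0.88.

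Ddit3 encodes CHOP, a C/EBP family factor that ATF4 induces and that promotes cell death in prolonged stress (chr10:127290774-127296288, plus strand). In CGR8 cells 5.49 and 6.24 CPM were measured in the controls and 4.06 and 2.18 with IAA, a log2 fold change of −0.91 (SE 0.33, adjusted p = 0.540). In cdSRCAP cells the controls held 6.70 and 5.11 CPM and the IAA libraries 3.40 and 2.33, a log2 fold change of −1.04 (SE 0.37, adjusted p = 0.766). The groups did not overlap in either, nor in wtSRCAP cells, where 6.22 and 5.77 CPM stood against 4.98 and 3.40. SYAT log2 fold changes lay between −0.31 and 0.00, with controls of 4.30 CPM in both replicates. A second gene entry named Ddit3 within the same span held 0 counts in every library, and 68 bases of the gene are shared with Mars on the opposite strand.

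Cebpb encodes C/EBPbeta, which can pair with ATF4 on its target element (chr2:167688915-167690418, plus strand). Levels in CGR8 were 8.09 and 5.90 CPM in the controls and 3.25 and 2.86 with IAA, a log2 fold change of −1.19 (SE 0.26, adjusted p = 0.540). In SYAT cells the controls held 10.3 and 7.52 CPM and the IAA libraries 6.51 to 17.0, with log2 fold changes of 0.19, −0.16, 0.54 and −0.37. The CGR8 groups were separate. The SYAT groups overlapped at 2, 4 and 6 h, and at 8 h the IAA libraries, at 6.51 and 7.19 CPM, lay below both controls. In wtSRCAP cells 8.48 and 6.81 CPM stood against 12.1 and 4.85, and the log2 fold change of 0.13 was −0.63 without IAA replicate 1 and 0.68 without IAA replicate 2. Of the span, 908 bases are also within Tmem189 on the opposite strand, and the strand setting of the counting was not stated in the sources used here.

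Atf5 encodes a basic leucine zipper factor whose mRNA is, like that of Atf4, translated more when eIF2alpha is phosphorylated (chr7:44812256-44816658, minus strand). The CGR8 controls held 20.9 and 14.8 CPM and the IAA libraries 10.8 and 8.51, a log2 fold change of −0.88 (SE 0.23, adjusted p = 0.540). In the SYAT time course the controls held 16.8 and 15.2 CPM and the IAA libraries 14.9 to 22.2. The groups overlapped at 2, 4 and 8 h, and at 6 h the IAA libraries, at 18.2 and 22.2 CPM, lay above both controls. In wtSRCAP cells 37.0 and 23.3 CPM stood against 43.9 and 19.2, and the log2 fold change of 0.06 was −0.62 without IAA replicate 1 and 0.56 without IAA replicate 2. In cdSRCAP cells 34.0 and 28.0 CPM stood against 25.7 and 29.4. Atf5 shares 257 exonic bases with Nup62 and Il4i1 on the opposite strand.

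Sesn2 and Ddit4, which both restrain the growth kinase complex mTORC1, differed by less than 0.5 on the log2 scale in CGR8 cells. The CGR8 controls held 169 and 145 CPM of Sesn2 against 131 and 115 with IAA, a log2 fold change of −0.35 (SE 0.14, adjusted p = 0.540). They held 38.2 and 35.1 CPM of Ddit4 against 31.5 and 27.4, a log2 fold change of −0.32 (SE 0.15, adjusted p = 0.571). Neither pair of groups overlapped. In SYAT cells Sesn2 stood at 175 and 167 CPM in the controls and at 204 and 205 after 2 h of IAA (log2 fold change 0.26, SE 0.12), and overlapped with the controls at 4, 6 and 8 h. Over all 30 libraries Sesn2 ranged from 96.6 to 311 CPM and Ddit4 from 24.0 to 184 CPM, with the highest values of both in sorted cells.

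Atf3, an early stress-induced basic leucine zipper factor (chr1:191170296-191218039, minus strand), was the only gene of the set whose exonic CGR8 groups overlapped. Its intronic CGR8 groups did not overlap, as given below. In CGR8 the controls held 1.31 and 0.614 CPM and the IAA libraries 1.03 and 0.597, overlapping, with a log2 fold change of −0.23 (SE 0.58). In EG1 cells the controls held 13.3 and 11.1 CPM and the 1 h IAA libraries 22.6 and 17.0. In LG1 cells the controls held 15.4 and 15.8 CPM and the IAA libraries 21.1 and 22.4. Both differences were upwards without overlap, with log2 fold changes of 0.70 (SE 0.18) in EG1 and 0.48 (SE 0.18) in LG1.

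Both Atf3 differences passed the threshold that the study set for sorted cells, a log2 fold change above 0.25 with an unadjusted p below 0.05. The study applied it to intronic reads with the DESeq2 Wald test, and here it was applied to exonic counts in edgeR. Neither difference passed after Benjamini-Hochberg adjustment over 21020 genes (adjusted p = 1.00 in both, edgeR quasi-likelihood test). The LG1 call was lost when any 1 of the 4 LG1 libraries was left out. The EG1 call was kept in each such fit, and the log2 fold change there was 0.48 without IAA replicate 1. Among all genes 0.190% were called higher in EG1 and 0.285% in LG1, and 1 of the 10 genes was in each. By non-overlap alone, 2 of 10 lay above their controls in EG1 (Sesn2 and Atf3) against 7.98% of all genes, and 2 of 10 in LG1 (Atf3 and Ddit4) against 7.83%. Without IAA, LG1 against EG1 cells gave no call among the 10 and 0% of all genes, with 303 genes at an unadjusted p below 0.05 and 1 gene called by DESeq2. Chac1 stood 0.53 higher on the log2 scale in LG1 (SE 0.40), and with the replicate number as a block it was called, out of 152 genes. The block also added Ddit4 to the calls in EG1, where 1269 genes were called in place of 257. In LG1 with IAA the blocked fit called 1 of the 10, out of 883 genes in place of 214.

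In the other tables Atf3 was near the limit of counting. It held 0 counts in wtSRCAP IAA replicate 1 and 14 in replicate 2, against 29 and 18 in the controls, and its log2 fold change of −2.0 (SE 1.09) ran from −7.62 to −1.25 when 1 library was left out. In cdSRCAP cells 19 and 17 counts stood against 21 and 6. In the SYAT time course the controls held 2.58 and 1.53 CPM and the IAA libraries 1.81 to 3.72, with log2 fold changes of 0.39, 0.46, 0.60 and 0.18 and an SE of 0.43 at 4 h.

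**Figure D2:**
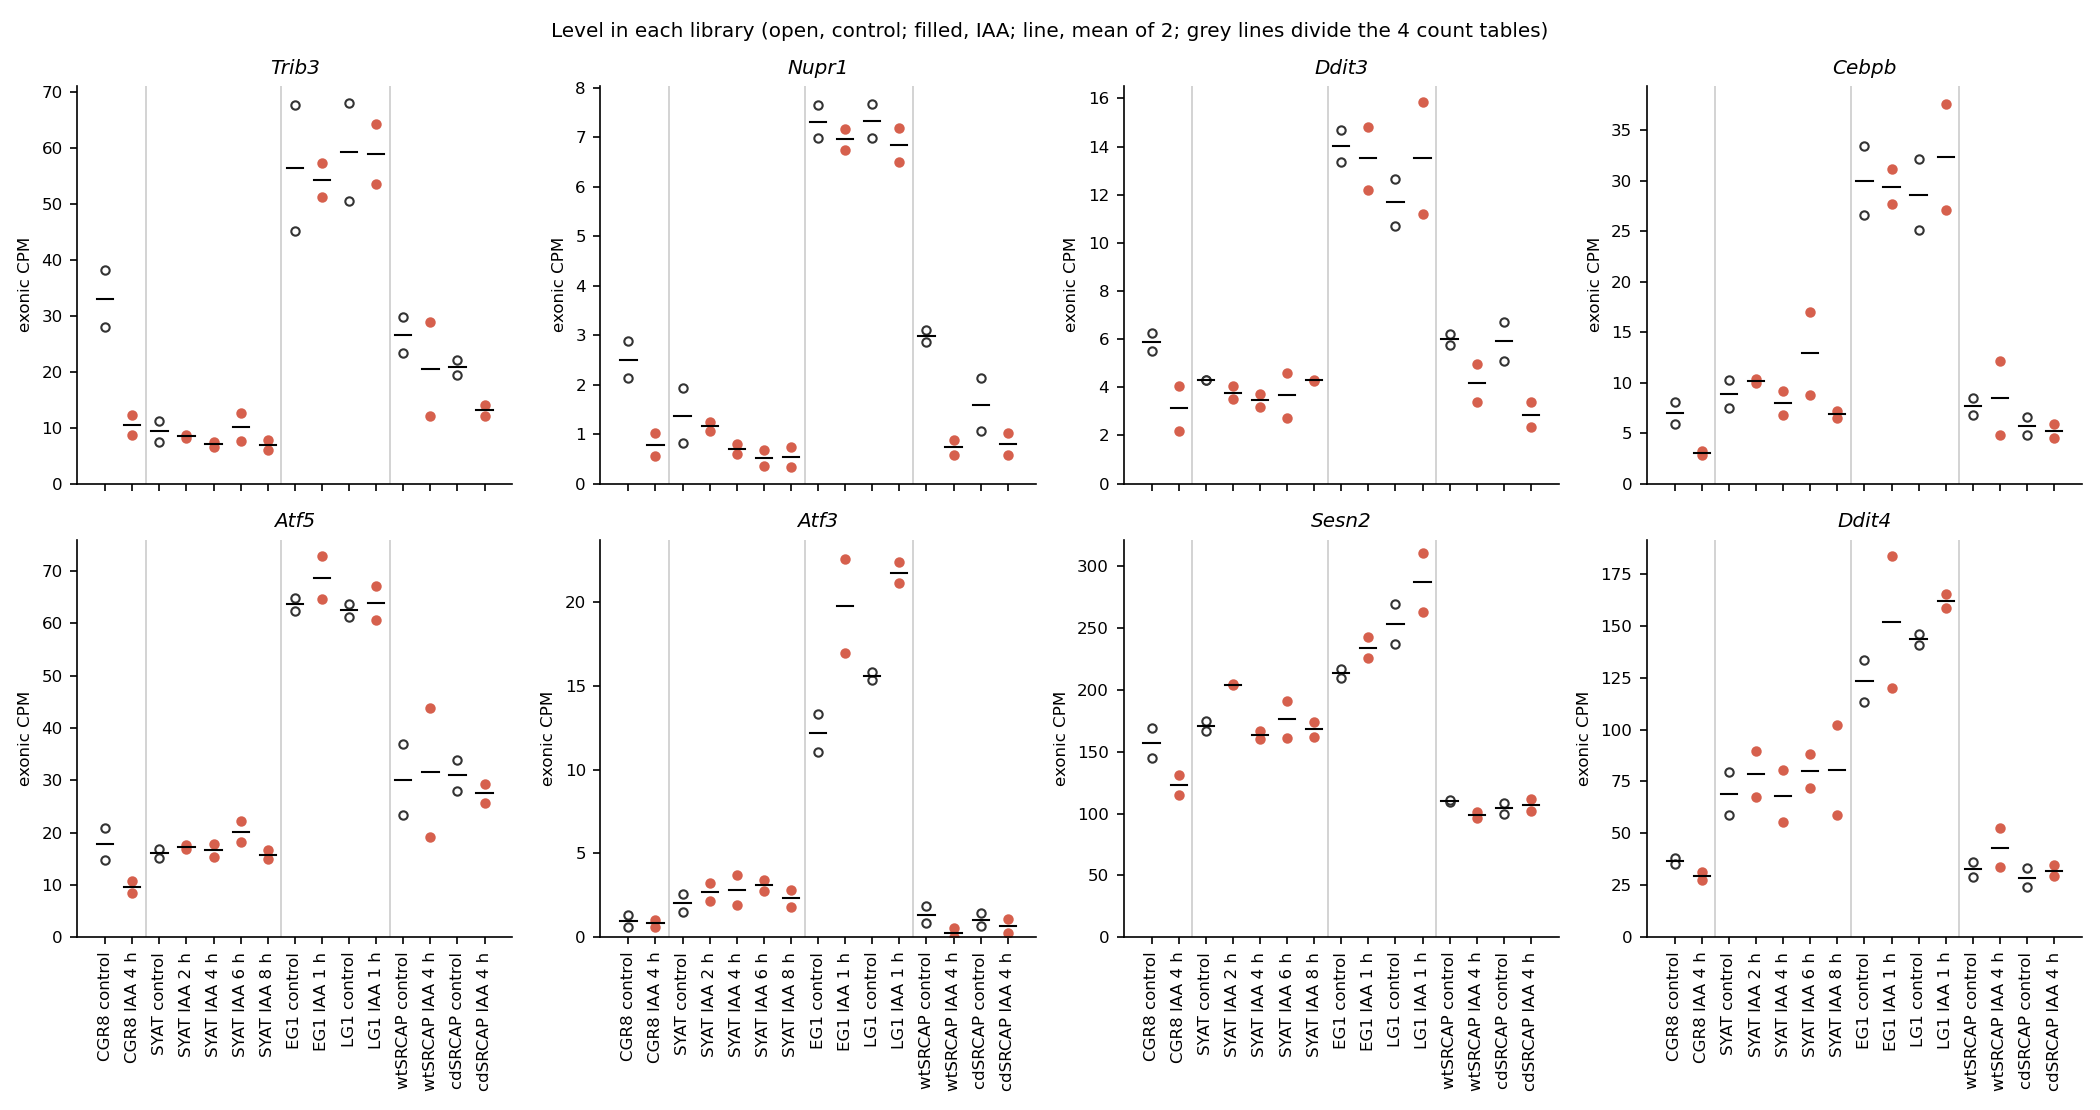
Exonic CPM on linear axes from 0 for the other 8 genes in each library by condition, with open points for controls, filled points for IAA and a line at the mean of 2. Trib3 lies at 38.2 and 27.9 CPM in the CGR8 controls against 12.3 and 8.64 with IAA, and Atf3 is highest in the sorted IAA libraries, up to 22.6 CPM.

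With IAA, all 10 genes had a negative log2 fold change in CGR8, with a median of −1.05, where 50% of the 20250 genes tested were negative and the median of all genes was near 0. Of the 10, 9 lay below both controls in both IAA libraries, all but Atf3, against 20.6% of all genes. Wholly above lay 0 of the 10, against 21.6% of all genes. At an absolute log2 fold change above 0.5 and an adjusted p below 0.05, 1 of the 10 was called (Atf4) and 0.00988% of all genes, which is 2 genes, Atf4 and Slc1a4. The number of calls depended on the method. DESeq2 called 5 of the 10 and edgeR without a filter on low counts called 6, out of 140 and 386 genes in all, and leaving out any 1 of the 4 libraries gave 2 to 6 of the 10 and 3 (without IAA replicate 2) to 2361 genes (without control replicate 2). Since Atf4 and Chac1 were chosen with such results known, the counts describe the genes and are no test of them.

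**Figure D3:**
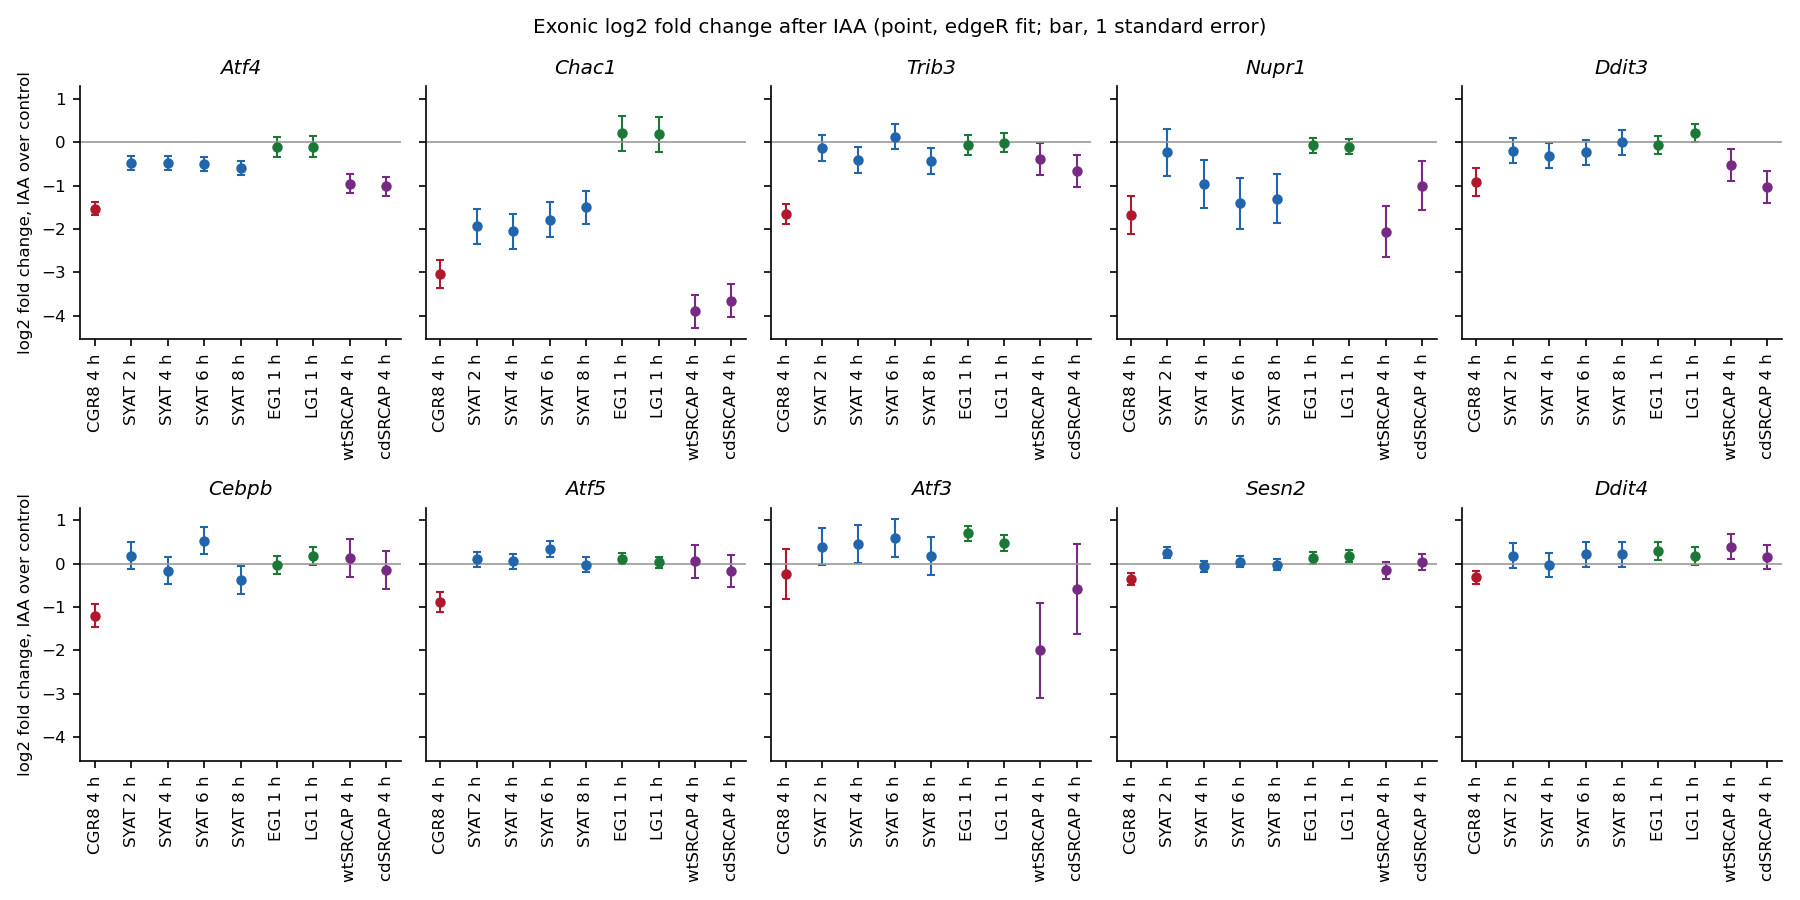
Log2 fold change of exonic counts with IAA over control for each of the 10 genes in the 9 IAA comparisons, where the point is the edgeR estimate and the bar 1 SE. In CGR8 all 10 points lie below 0, from −3.04 for Chac1 to −0.23 for Atf3, while in sorted cells after 1 h the Atf3 points lie above 0, at 0.70 and 0.48.

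In the SYAT time course none of the 10 genes was called at 2, 4, 6 or 8 h. Among the 19205 genes tested, 0% were called at 2 h, 0% at 4 h, 0.0677% at 6 h (13 genes) and 0.00521% at 8 h (1 gene). At an unadjusted p below 0.05, 2, 2, 3 and 3 of the 10 stood out at these times, against 752, 1745, 3099 and 2606 of all genes. Without IAA replicate 1 of 6 h, 2 of the 10 and 3163 genes were called at that time. DESeq2 called 1 of the 10 at 4 h and at 6 h and none at 2 and 8 h. The median log2 fold change of the 10 was −0.02, −0.23, 0.09 and −0.20 at the 4 times, and 5, 8, 4 and 8 of the 10 were negative, where 49.4%, 47.6%, 49.1% and 46.8% of all genes were. By non-overlap, 3 of 10 lay below both controls at 2 h against 21.0% of all genes, 5 at 4 h against 24.1%, 3 at 6 h against 22.2% and 4 at 8 h against 24.0%. Ddit3 was among them at 2 and 4 h, Trib3 at 4 h, Nupr1 at 4, 6 and 8 h and Cebpb at 8 h, while Sesn2 lay above both controls at 2 h and Atf3 and Atf5 did at 6 h. Atf4 and Chac1 were the 2 genes below both controls in all 8 IAA libraries, where 9.20% of all genes were.

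With IAA in wtSRCAP cells, Chac1 was the only gene called among all 19111, a share of 0.00523%, and this call was lost whichever of the 4 libraries was left out. In cdSRCAP cells none of the 10 and 0% of all genes were called, with 1077 genes and 3 of the 10 at an unadjusted p below 0.05. DESeq2 called 1 of the 10 in each line, out of 21 genes in wtSRCAP and 22 in cdSRCAP cells. With the replicate number as a block, Atf4 and Chac1 were called in both lines, out of 612 genes in wtSRCAP and 345 in cdSRCAP cells. Since both genes were chosen with such results known, their calls in these lines describe them and are no test of them. By non-overlap, 6 of 10 lay below their controls in wtSRCAP cells (Atf4, Ddit3, Chac1, Sesn2, Atf3 and Nupr1) against 19.5% of all genes. In cdSRCAP cells 5 of 10 did (Atf4, Ddit3, Trib3, Chac1 and Nupr1) against 19.0%. Summed markers of other cell types also differed between these groups. In wtSRCAP cells the 5 fibroblast markers summed to 6.22 to 7.31 CPM in the controls and 13.1 to 13.6 with IAA, and the 4 mesoderm markers to 1.10 to 1.27 against 1.80 to 3.02. In cdSRCAP cells the mesoderm markers summed to 0.979 to 1.32 against 1.94 to 2.33, and the fibroblast markers overlapped, at 8.44 to 9.22 against 9.15 to 9.47. The 9 pluripotency markers of wtSRCAP cells summed to 2827 to 3372 CPM in the controls and 3715 to 3902 with IAA, and of all these markers only Foxa2, of endoderm, was at 0 in wtSRCAP cells. The part of these markers in the differences of the 10 genes was not tested.

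The comparison of the SYAT with the CGR8 response asks whether the change with IAA in cells that lose SRCAP differs from that in cells that keep it. At 4 h all 10 differences between the responses were positive, with a median of 0.82, where that of all 20169 genes was −0.02. Positive means that the log2 fold change was less negative or more positive in SYAT than in CGR8 cells. The set was selected on earlier results of these data, so the shared sign describes the genes and is no test of them. For Atf4 the difference was 1.04 (SE 0.22, 95% interval 0.56 to 1.53), and it was 0.86 to 1.22 when 1 library was left out. For Chac1 it was 0.96 (SE 0.53, 95% interval −0.18 to 2.10). Among the other genes it was 1.24 for Trib3 (SE 0.40, adjusted p = 0.472), 1.03 for Cebpb (SE 0.43, adjusted p = 0.566) and 0.92 for Atf5 (SE 0.29, adjusted p = 0.451) in the edgeR fit to 20169 genes. Intervals for Nupr1, Atf3, Ddit3, Sesn2 and Ddit4 included 0.

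None of the 10 genes and 0% of all genes were called for this difference by edgeR, with 4 of the 10 and 1613 genes at an unadjusted p below 0.05. DESeq2 called 1 of the 10, Atf4, out of 42 genes. The 2 responses share no library, but line, auxinole in the control and sequencing table all differ between them, and these cannot be told apart. Atf4 and Chac1 were thus lower with IAA in cells without a degron too.

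**Figure D4:**
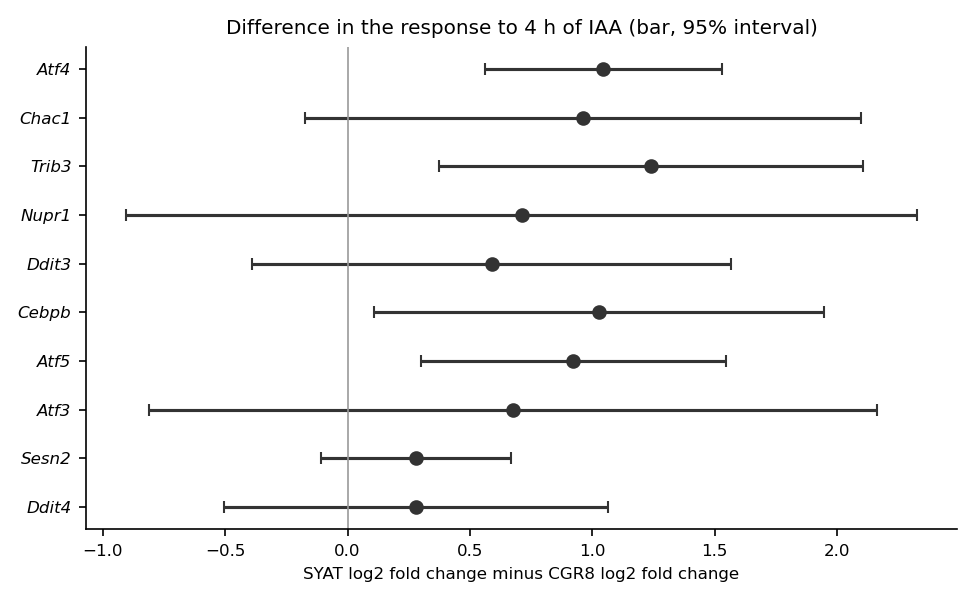
The SYAT log2 fold change at 4 h of IAA minus that of CGR8 for each of the 10 genes, with the 95% interval of the edgeR fit. All 10 points lie to the right of 0, from 0.28 for Sesn2 and Ddit4 to 1.24 for Trib3, with Atf4 at 1.04.

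Several of the genes also stood at different levels in the 2 SRCAP-mCherry lines before IAA. In the controls, cdSRCAP was below wtSRCAP for 9 of the 10 genes, where the median log2 fold change of all genes was −0.02. The log2 fold changes were −1.06 for Chac1 (SE 0.32), −0.88 for Nupr1 (SE 0.54) and −0.84 for Atf4 (SE 0.22). The other lower genes included Cebpb at −0.42 and Trib3 at −0.35. None was called, as 0% of all genes were, with 730 genes at an unadjusted p below 0.05 and 23 called by DESeq2, none of them among the 10. Of the 10, 6 lay lower in cdSRCAP without overlap (Atf4, Trib3, Chac1, Sesn2, Cebpb and Nupr1), against 14.1% of all genes. Higher without overlap lay 0 of the 10, against 15.7% of all genes. With the replicate number as a block, Atf4 was called, out of 174 genes.

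After IAA the difference between the lines for Atf4 was −0.90 (SE 0.22) and for Chac1 −0.81 (SE 0.41), and 3 of the 10 lay lower without overlap (Atf4, Ddit3 and Chac1) against 14.6% of all genes, while Sesn2 lay higher. None of the 10 was called and 0.00523% of all genes were, which is 1 gene, and with the block Atf4 was called, out of 269. For the interaction of IAA with the cdSRCAP line no gene was called, 0% of all genes, with 150 genes and none of the 10 at an unadjusted p below 0.05 and no gene called by DESeq2. Nupr1 had an interaction of 1.06 (SE 0.81) and Atf3 of 1.41 (SE 1.5), both with intervals that included 0.

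Intronic counts, which come mainly from unspliced transcripts, were usable for Chac1, Trib3, Ddit3, Sesn2 and Atf3 in the CGR8, wtSRCAP and cdSRCAP libraries. Chac1 held 16 and 34 intronic counts in the CGR8 controls against 3 and 7 with IAA, 17 and 15 against 0 and 0 in wtSRCAP cells, and 8 and 12 against 0 and 0 in cdSRCAP cells. With 3 counts per library taken as the limit that a count of 0 allows, the intronic level was at least 3.73-fold lower with IAA in wtSRCAP and at least 3.39-fold lower in cdSRCAP cells. Trib3 introns held 16.8 and 19.5 CPM in the CGR8 controls against 2.59 and 4.45, a log2 fold change of −2.35 (SE 0.48, adjusted p = 0.399). Trib3 intronic and exonic differences in CGR8 were thus in the same direction. Atf3 introns held 11.6 and 9.22 CPM in the CGR8 controls against 2.42 and 3.50 with IAA, a log2 fold change of −1.80 (SE 0.59, adjusted p = 0.925), where its exons overlapped. Sesn2 introns held 85.8 and 78.6 CPM against 63.8 and 55.7. None of these intronic differences was called.

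For SYAT time-course and EG1 libraries, the intronic columns did not hold introns alone. Atf4, whose exons cover its whole span and which had 0 intronic counts in the CGR8, LG1, wtSRCAP and cdSRCAP libraries, had intronic counts of 88.6% to 93.0% of its exonic counts there. Intronic values of those libraries are therefore left out.

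The other genes of the pathway were followed as lists, each given by its counts and median beside the 10 genes. In CGR8 cells 13 of 14 genes of amino acid synthesis had a negative log2 fold change (median −0.35), as did 9 of 10 amino acid transporters (−0.19), 11 of 12 aminoacyl-tRNA synthetases (−0.37) and 11 of 15 other ATF4 targets (−0.38). Each of these medians was nearer 0 than the −1.05 of the 10 regulators. That set was selected on earlier results of these data, so the order is a description and no test. Among all these genes 1 was called, the neutral amino acid transporter Slc1a4. Its controls held 33.8 and 43.1 CPM and its IAA libraries 10.8 and 10.9, and it fell by 1.82 on the log2 scale (SE 0.18, adjusted p = 0.0444). Over the SYAT time course its log2 fold changes were −0.12, −0.32, −0.27 and −0.42 (SE 0.40), and with IAA it stood at −0.94 (SE 0.27) in wtSRCAP and −0.95 (SE 0.27) in cdSRCAP cells, none of them called.

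The genes of each list with the highest mean count gave smaller log2 fold changes in CGR8 than Slc1a4. Psat1, a serine synthesis enzyme, stood at −0.10 and the mitochondrial folate enzyme Shmt2 at −0.15. The alanyl-tRNA synthetase gene Aars stood at −0.45 and the synthetase gene Eprs at −0.05. The translation repressor Eif4ebp1 stood at 0.00 and the mitochondrial protease Lonp1 at −0.29. They were named for their counts and do not stand for the lists. Other listed genes lay lower, among them Vldlr at −2.05 (SE 0.48), Gdf15 at −1.36 (SE 0.32) and Stc2 at −1.09 (SE 0.19). None of the genes of this paragraph passed the test.

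Upstream of ATF4, 2 of 4 eIF2alpha kinases were negative in CGR8 (median −0.08), with the haem-regulated kinase Eif2ak1 at −0.19 and the ER kinase Eif2ak3, or PERK, at −0.47. Subunits of eIF2 and eIF2B were negative in 3 of 8 (median 0.09), the eIF2alpha phosphatase genes in 1 of 5 (0.01) and the genes that act on the kinase GCN2 in 1 of 2 (−0.06). Of these, the eIF2 subunit genes Eif2s1 and Eif2s2 stood at 0.44 and 0.47, the phosphatase subunit genes Ppp1ca and Ppp1r15b at 0.02 and −0.32, and Gcn1l1 and Impact at −0.29 and 0.16. Basic leucine zipper partners were negative in 7 of 9 (−0.32), with Nfe2l1 at −0.32 and Atf2 at 0.30. Genes of the other branches of endoplasmic reticulum stress were negative in 14 of 16 (−0.35), with the chaperone gene Hspa5 at −0.53 and Calr at −0.37, and p53 targets in 6 of 8 (−0.14), with Zmat3 at −0.14 and Ccng1 at 0.20. No gene of these lists was called.

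At 4 h in SYAT cells the medians were nearer 0 for amino acid synthesis (−0.08, 10 of 14 negative), transport (−0.05, 6 of 10) and other ATF4 targets (0.04, 6 of 15). The synthetases were negative in 12 of 12 with a median of −0.20, and the other endoplasmic reticulum stress genes in 15 of 16 with −0.20, where 47.6% of all genes were negative. In wtSRCAP cells the medians were −0.12 for synthesis, −0.21 for transport and −0.07 for synthetases. In cdSRCAP cells they were −0.03, 0.02 and −0.16. No list gene was called in these comparisons, and whether the lists differ from other genes was not tested.

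**Figure D5:**
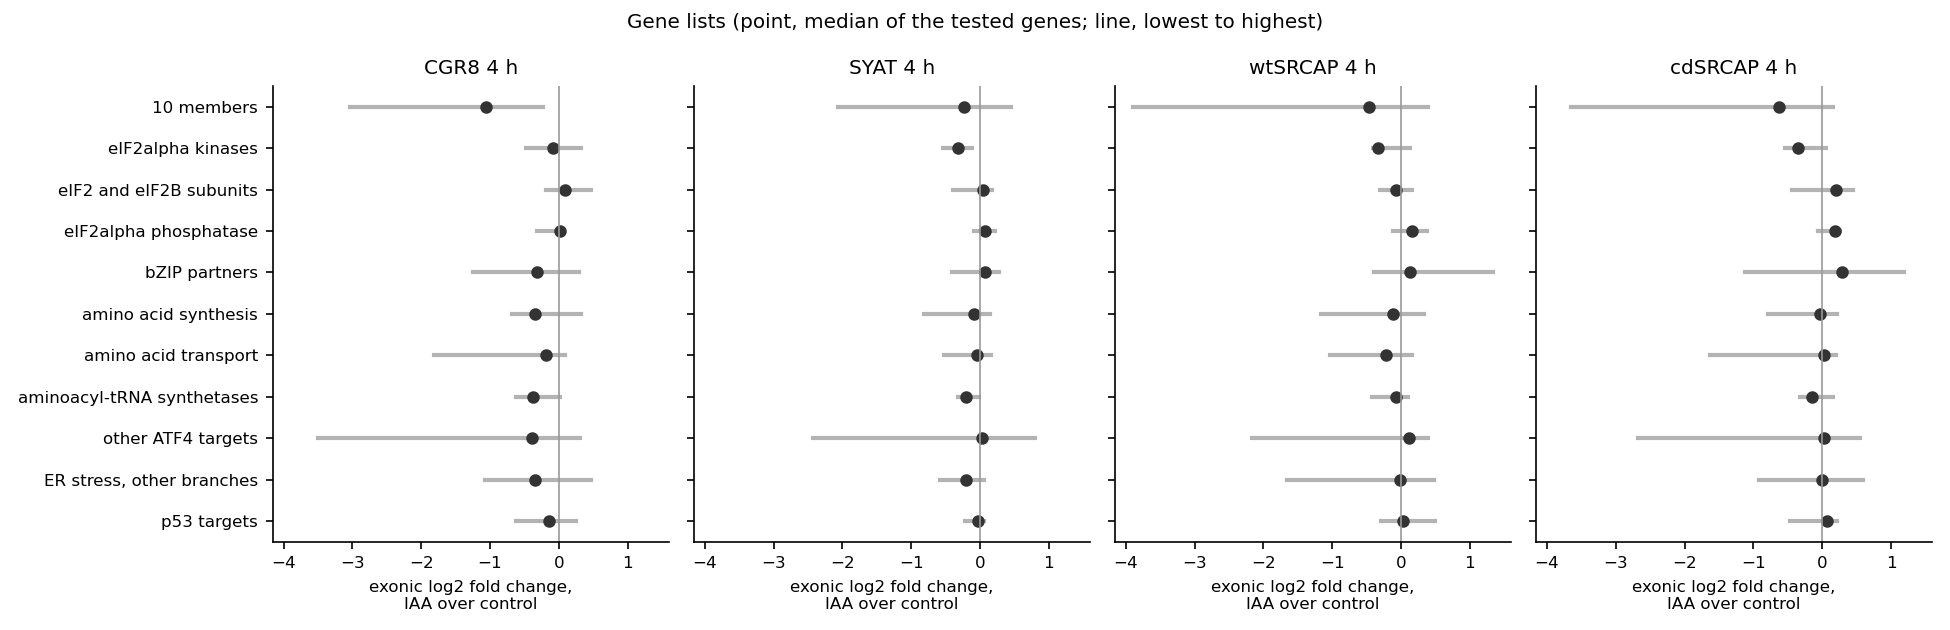
Median (point) and lowest to highest (line) exonic log2 fold change with IAA over control for the 10 genes and the pathway lists in CGR8, SYAT 4 h, wtSRCAP and cdSRCAP cells. The 10 regulators, which were selected on earlier results of these data, have the lowest median in CGR8, −1.05. The range of each list spans 0 in most panels.

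The genes whose levels followed Atf4 most closely were sought over the 30 libraries among 17480 genes, with each table centred on its own mean. The 5 highest were Pcyt2 (Pearson r = 0.871), Chac1 (0.867), Mrtfa (0.865), Adm2 (0.858) and Slc7a1 (0.849). Trib3 came next with 0.840, followed at some distance by Nupr1 with 0.764 (rank 36), Ddit3 with 0.706 (rank 117) and Cebpb with 0.648 (rank 259). Atf5 (0.480), Sesn2 (0.332), Atf3 (0.158) and Ddit4 (0.0986) followed Atf4 less. These values are descriptive: the libraries share treatments, and Atf4 and Chac1 were chosen for their change with IAA. Adm2, an ATF4 target that encodes a small peptide hormone, held 0.678 and 1.06 CPM in the CGR8 controls against 0 and 0.145 with IAA. Slc7a1, a cationic amino acid transporter, stood at −0.72 (SE 0.14) on the log2 scale with IAA in CGR8, −0.65 in wtSRCAP and −0.45 in cdSRCAP cells, none of them called.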

How the data were processed

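Raw counts of reads per gene were deposited by the authors for exons and for introns (gene bodies without exons). Per the methods, reads were aligned to mm10 with STAR and counted with featureCounts on GENCODE vM25, from directional libraries of nuclear RNA. The strand setting of the counting is not given in the sources used here. The authors' comparison tables hold their own fold changes and p-values and were not used.

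Exonic counts were fitted with edgeR 4.0.16 (R 4.3.3): TMM scaling, filterByExpr (minimum count 10, minimum total 15), quasi-likelihood tests without a replicate block and Benjamini-Hochberg adjustment over all genes. Each table was fitted whole. CGR8 and SYAT were fitted jointly only for the difference of their responses. SE is the absolute log2 fold change divided by the square root of F, and intervals are 95%. Calls needed an absolute log2 fold change above 0.5 and an adjusted p below 0.05, or above 0.25 and an unadjusted p below 0.05 for IAA in sorted cells. These are thresholds of the study, which used DESeq2 and applied the one for sorted cells to intronic reads. CPM used TMM library sizes. DESeq2 1.42.0, DESeq2 size factors, no filter, a replicate block, introns and leaving out each library were alternatives. DESeq2 with a replicate block was added after seeing the data. The fits were tested on simulated data.

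The replicates are biological duplicates per the methods. The p-values rest on the spread between libraries within groups, pooled over all groups of a fit and with information shared across genes. Deviations of libraries with equal replicate numbers correlated in all pairs of groups of the sorted (0.372 to 0.586) and wtSRCAP and cdSRCAP tables (0.259 to 0.376). In SYAT the control correlated at 0.331, 0.372 and 0.305 with the 2, 4 and 8 h groups. Pairs with the 6 h group lay at −0.0359 to 0.0623, and the CGR8 value was 0.0736. Blocked calls therefore stand beside the results of all tables but CGR8, for which they are given at the end. The members and lists were chosen with earlier results of these data known. All 10 members are named. Of each list, the genes called are named, or else the 2 with the highest mean count, and the 5 genes most like Atf4. Vldlr, Gdf15 and Stc2 were added for their differences in CGR8. For introns and exons, gene spans come from GENCODE vM21 on GRCm38, and promoter windows from RefSeq on GRCm38.p6. Intervals rest on the spread between libraries in the fit, and the limit for a count of 0 covers counting error only.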

Additional observations from a re-analysis of the deposited data

How the results depend on the processing

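The direction of single-gene differences held in most alternatives, less often when 1 library was left out, and the number of calls changed widely. Over the 10 genes and all comparisons, 794 of 826 values under other processing had the same sign as reported. Of the 826, 736 lay within 1 SE with the call unchanged. They include the intronic columns of SYAT and EG1, where agreement is no independent check. A stricter threshold in sorted cells is also among them, and there the sign could not change. When 1 library was left out, 547 of 640 had the same sign, and 523 lay within 1 SE with the call unchanged. With 2 libraries a group, depth limits Nupr1, Atf3 and Chac1 most, at under 35 counts in many IAA libraries. The intronic columns of the SYAT time course and of EG1 did not hold introns alone, so every intronic count below that uses them (SYAT, EG1, LG1 against EG1 and the line difference) measures something other than introns. The cause of the changes below was not tested.

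Of the 10 genes, 1 was called in CGR8, and this count was 6 with no filter on low counts, 5 with DESeq2, 6 with the replicate block, 5 with DESeq2 and the block, 0 in introns and 2 to 6 without 1 library. The count for SYAT was 0 and became 1 at 4 h and 6 h with no filter, with DESeq2 and with the block, 1 at 8 h with the block, 1 at 6 h and 8 h with DESeq2 and the block, and 0 to 2 at 6 h without 1 library. In EG1 it was 1, and 0 by adjusted p, 2 with the block and 1 to 2 without 1 library. In LG1 it was 1, and 0 by adjusted p, in introns and without any 1 library. For LG1 against EG1 it was 0, and 1 with the block under both tools and 9 in the intronic columns. In wtSRCAP it was 1, and 2 with the block under both tools, 0 in introns and 0 without any 1 library. In cdSRCAP it was 0, and 1 with no filter and with DESeq2 and 2 with the block under both tools. For cdSRCAP against wtSRCAP it was 0, and 1 with the block under both tools, before and after IAA. For the SYAT and CGR8 difference it was 0, and 1 with no filter, DESeq2, and DESeq2 with the block.

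Calls among all genes moved more. With no filter, they were 386 in CGR8 (2 as reported), 8, 88, 885 and 448 in SYAT at 2, 4, 6 and 8 h (0, 0, 13 and 1), 626 in EG1 (257), 372 in LG1 (214), 70 for LG1 against EG1 (0), 20 in wtSRCAP (1), 10 in cdSRCAP (0), 40 and 44 for cdSRCAP against wtSRCAP before and after IAA (0 and 1) and 90 for the line difference (0). With DESeq2 the same counts were 140, then 9, 183, 647 and 445, then 133, 77 and 1, then 21, 22, 23 and 8, and 42. With the replicate block they were 500 in CGR8, 76, 823 and 634 in SYAT at 4, 6 and 8 h, 1269 in EG1, 883 in LG1, 152 for LG1 against EG1, 612 in wtSRCAP, 345 in cdSRCAP and 174 and 269 between these lines. With DESeq2 and the block they were 410, then 34, 341, 1215 and 759, then 435 in EG1 and 106 for LG1 against EG1, then 800, 519, 254 and 406, 1 for the interaction and 130 for the line difference. In the intronic columns, with that limit, they were 2 in SYAT at 6 h, 397 in EG1, 688 in LG1, 10298 for LG1 against EG1, 38 in wtSRCAP, 30 in cdSRCAP, 13 and 2 between these lines and 25 for the line difference. By adjusted p they were 0 in EG1 and in LG1. With DESeq2 size factors 1 gene was called for cdSRCAP against wtSRCAP before IAA. Without 1 library they were 3 to 2361 in CGR8 (2361 without control replicate 2), 0 to 3163 in SYAT at 6 h, 0 at 8 h, 136 to 412 in EG1, 192 to 440 in LG1, 0 in wtSRCAP and 0 to 1 for cdSRCAP against wtSRCAP after IAA.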
